A study of Mus musculus with 10 samples.

Results

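Replication-dependent histone genes encode the core histones H2A, H2B, H3 and H4 and the linker histone H1, the proteins around which newly copied DNA is packed. The genes described here were all those of the count matrices whose symbol begins with Hist1h, Hist2h, Hist3h or Hist4h, which gave 67 of 32285 genes. They comprise 6 genes of H1, 18 of H2A, 18 of H2B, 12 of H3 and 13 of H4. Single cells came from wild-type NMRI mouse embryos, with no genetic change or treatment. Whole mandibles were taken at embryonic day E11.5, and the buds of the lower incisors were dissected from older embryos, of E14.5 or E16.5. For these stages the labels list 4, 4 and 2 samples, but the cells of a stage are pooled in 1 matrix that does not name the sample of a cell. Each stage therefore counts as 1 sample without replicates, no p-value is given, and stage, dissection and library cannot be told apart.

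Cells with at least 700 detected genes and at most 20% mitochondrial UMIs (unique molecular identifiers, each a captured RNA molecule) were used, which left 6573, 6091 and 4511 cells, in the order of the stages. Their median depths were 5664, 3471 and 6260 UMIs. Between 9 and 11 barcodes were shared by any pair of stages. Levels are CPM, the UMIs of a gene scaled to all UMIs of a group of cells, times 1000000, and every interval is a 95% counting interval, which covers counting error only and not the spread between embryos.

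Cells make these mRNAs mainly in S phase, when histones are needed in step with DNA synthesis. The mRNA normally has no poly(A) tail. It ends just after a short stem-loop that is bound by the protein Slbp and trimmed with the help of the U7 small nuclear ribonucleoprotein, although some of the genes also give longer transcripts that are polyadenylated downstream. The libraries here were made from poly(A) RNA, so the UMIs count those histone transcripts that poly(A) priming caught. *Pcna*, the sliding clamp of DNA polymerases, and *Mki67*, which encodes the Ki-67 protein of cycling cells, served as the measures of cycling in the same cells.

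The stem-loop is the sequence that many genes of the family share, and it is shown for 5 genes in 4 forms from the annotated transcripts (GENCODE vM21, GRCm38), with the stem and loop in capitals.

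Hist1h2ae: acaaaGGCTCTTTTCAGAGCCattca
Hist3h2a: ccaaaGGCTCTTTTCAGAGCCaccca
Hist1h3c: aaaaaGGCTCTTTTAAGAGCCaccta
Hist1h4d: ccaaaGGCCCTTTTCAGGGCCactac
Hist1h4i: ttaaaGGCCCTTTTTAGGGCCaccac

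These stretches lie in the 3′ untranslated regions. *Hist1h2ae* has it at chr13:23570663-23570688 on the minus strand, *Hist3h2a* at chr11:58955167-58955192 on the plus strand and *Hist1h3c* at chr13:23745042-23745067 on the minus strand. For *Hist1h4d* it is at chr13:23581945-23581970 on the plus strand, and for *Hist1h4i* at chr13:22040961-22040986 on the minus strand. A stem of 6 bases starting with GG and a loop of 4 bases was found in the annotated transcripts of 44 of the 67 genes, in 6 distinct versions, beginning 21 to 58 bases after the stop codon. The most frequent version, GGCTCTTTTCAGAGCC, was carried by 26 genes. Another, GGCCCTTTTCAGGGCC, was carried by 7. Of the 23 genes without the pattern, 17 have an annotated 3′ untranslated region shorter than 50 bases, so that the annotation of most of them ends before the place where other members have the stem-loop.

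The annotation also extends beyond the stem-loop for part of the family. In 22 genes it reaches more than 100 bases further, among them *Hist1h1e* with 1153 bases and *Hist3h2a* with 1643 bases. In 17 genes a polyadenylation signal (AATAAA or ATTAAA) lies in the last 50 bases of a transcript. Those 17 genes gave 28.0% of all UMIs of the family, and the 22 genes with the longer 3′ ends gave 42.4%. The most counted gene, *Hist1h2ae*, has 151 bases after the stem-loop and such a signal.

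Most of the genes sit in 1 cluster. The files' genes map to chromosome 13 in 54 cases, chromosome 3 in 10, chromosome 11 in 2 and chromosome 6 in 1. RefSeq promoters (GRCm38.p6, 250 bases before to 50 after the start) were found for 61 of them. The CCAAT box (CCAAT, either strand) was present in 85.2% of these and in 37.9% of 27025 promoters of all genes. A TATA box spelled TATAAA was present in 57.4% against 14.2% (either strand). The octamer ATTTGCAT, a hallmark of H2B promoters, was present in 21.3% against 1.75% (either strand). Near-identical copies limit what can be said of single genes. Fewer than 50% of the 50-base stretches of 30 genes are unique within the family, with 6.93% for *Hist1h2ap*. In addition *Hist3h2a* overlaps *Trim17*, *Hist2h2bb* overlaps *Gm42743* and *Hist1h1e* overlaps *Hist1h2be* on the same strand, so levels of these genes are uncertain.

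The summed level of the family was highest in the whole mandible. It was 2899 CPM at E11.5 (interval 2884 to 2914), 2009 CPM at E14.5 (1992 to 2026) and 2122 CPM at E16.5 (2108 to 2137), from 137738, 55779 and 84946 UMIs. E14.5 over E11.5 gave a ratio of 0.693 (0.686 to 0.6998), and E16.5 over E14.5 gave 1.06 (1.05 to 1.07). A UMI was found for 64, 63 and 64 of the 67 genes, and at least 1 UMI was held by 94.6%, 91.3% and 79.4% of cells at E11.5, at E16.5 and at E14.5. Within mesenchyme alone the first ratio was 0.691 (0.683 to 0.6996), close to the value over all cells.

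The linker histones showed the widest gap between E11.5 and the later stages. Summed H1 genes had 922 CPM at E11.5, 454 CPM at E14.5 and 460 CPM at E16.5, a ratio of 0.492 (0.482 to 0.501) from the first to the second stage. H2A genes had 1077, 755 and 842 CPM. H3 genes had 290, 266 and 234 CPM, and H4 genes 313, 282 and 259 CPM, so both were a little lower at each later stage. H2B genes had 296, 253 and 327 CPM, and only this type was above its E11.5 level at E16.5, with a ratio of 1.10 (1.08 to 1.13). Without *Hist1h2bc* and *Hist3h2ba*, left out after their values were seen, the other 16 H2B genes had 252, 162 and 191 CPM, and the ratio was 0.759 (0.738 to 0.781), on the other side of 1. The share of H1 in the UMIs of the family was 31.8% in the mandible and 22.6% and 21.7% in the buds.

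**Figure D1:**
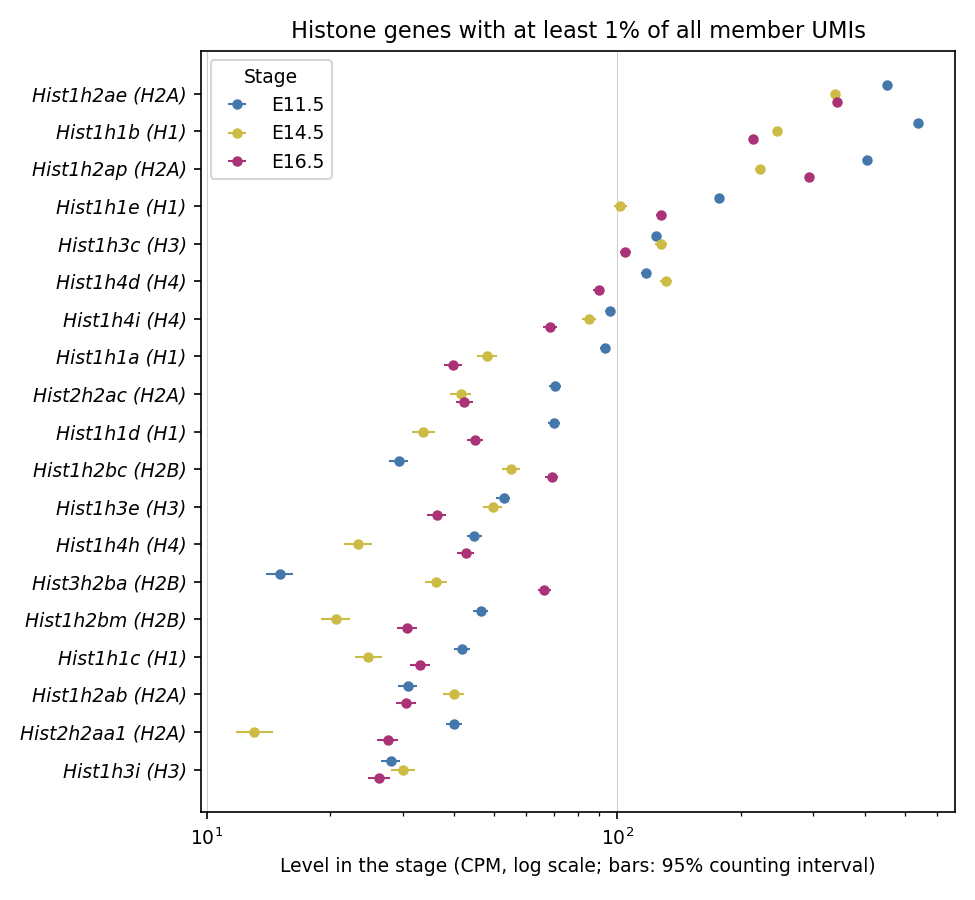
Levels in CPM (log axis) of the 19 histone genes with at least 1% of the family's UMIs, by stage, with 95% counting intervals as bars; many bars are shorter than the points. The H1 genes are highest at E11.5 (*Hist1h1b*, 540 CPM), whereas *Hist1h2bc* and *Hist3h2ba* are highest at E16.5 (69.2 and 66.4 CPM).

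Few genes carried much of the signal. *Hist1h2ae* held 16.03% of the family's UMIs, *Hist1h1b* 14.7% and *Hist1h2ap* 13.3%, and the 19 genes with at least 1% each are shown in the plot of levels by stage. The UMIs count only transcripts that poly(A) priming caught, and near-identical copies limit the counts of single genes. The shares therefore describe captured molecules and do not rank the genes by mRNA level. The H2A gene *Hist1h2ae* had 453 CPM at E11.5, 339 CPM at E14.5 and 342 CPM at E16.5. The H1 gene *Hist1h1b* had 540, 245 and 214 CPM. *Hist1h2ap*, also of H2A, had 406, 222 and 293 CPM. Each of these genes was highest at E11.5.

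A call here is a ratio of at least 2-fold after adding 10 CPM to both sides, for genes with at least 50 UMIs in the groups together, and it is a rule of size and not a test. From E11.5 to E14.5, *Hist1h1b* and *Hist2h2aa1* were called lower, 2 of 58 genes of the family, and 1.46% of all 13672 genes were called lower. None of the 58 was called higher, against 2.51% of all genes. Between E14.5 and E16.5 no gene of the family was called in either direction (0.903% of all genes higher and 0.361% lower). From E11.5 to E16.5 the called genes were *Hist1h1a* and *Hist1h1b* (lower, 1.67% of all genes) and *Hist1h2bc*, *Hist3h2a* and *Hist3h2ba* (higher, 4.37%), of 59 tested. The median log2 ratio of the family from E11.5 to E14.5 was -0.16, beside -0.06 for all genes.

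The genes at the ends of the range within each type, among those with at least 50 UMIs in both stages, show how uneven the stages were. From E11.5 to E14.5 the ratios of H1 genes ran from 0.454 for *Hist1h1b* to 0.591 for *Hist1h1c*. H2A genes ran from 0.326 for *Hist2h2aa1* to 2.68 for *Hist3h2a*. H2B genes ran from 0.252 for *Hist1h2bp* to 2.41 for *Hist3h2ba*. Ratios of H3 genes lay between 0.50 for *Hist2h3b* and 1.56 for *Hist1h3h*, and those of H4 genes between 0.519 for *Hist1h4j* and 1.12 for *Hist1h4d*. All 5 H1 genes measured at this depth were thus lower at E14.5, while each core histone type held genes on both sides of 1.

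From E14.5 to E16.5 the span was narrower for H2A, H2B and H3 genes and wider for H1 and H4 genes. The H1 genes ran from 0.828 for *Hist1h1a* to 1.34 for *Hist1h1d*. The smallest ratios of the core types were 0.718 for *Hist1h2ak*, 0.687 for *Hist1h2bk*, 0.730 for *Hist1h3e* and 0.686 for *Hist1h4d*. The largest were 2.11 for *Hist2h2aa1*, 1.94 for *Hist1h2bp*, 1.71 for *Hist2h3b* and 1.90 for *Hist1h4a*. Of these core genes, 5 have fewer than 50% unique stretches, with 10.8% for *Hist2h2aa1*, 20.3% for *Hist2h3b*, 25.8% for *Hist1h2bk*, 26.6% for *Hist1h3e* and 47.7% for *Hist1h2ak*.

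A few genes were at or near 0. *Hist1h2ba*, an H2B gene known from the testis, had 0 UMIs at all 3 stages, which allows a level of up to 0.0631, 0.108 and 0.0750 CPM. *Hist1h2bq*, *Hist1h2aa* and *Hist2h2aa2* had 0 UMIs at 2 stages each. Of their 50-base stretches, 0.0% are unique within the family for *Hist1h2bq* and *Hist2h2aa2*, against 97.7% for *Hist1h2aa*. Counts of *Hist1h2bq* and *Hist2h2aa2* are therefore not read as absence of the transcript. *Hist1h4m* had 48 UMIs at E11.5 and 75 UMIs at E16.5 but 0 UMIs at E14.5, so it was at least 9.35-fold higher at E11.5 and at least 17.3-fold higher at E16.5 than at E14.5, measured against a floor of 3 counts. Only 10.2% of the stretches of *Hist1h4m* are unique.

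Cells of the same stage ranged widely. To compare cells at equal depth, each was thinned at random to 2000 UMIs, which left 5824, 5210 and 4298 cells and dropped 749, 881 and 213 shallower ones. At E11.5, 13.5% of these cells had no histone UMI and the median was 4. At E14.5, 27.8% had none and the median was 1. At E16.5, 28.3% had none and the median was also 1. The level at which the top 10% of cells began was 13, 11 and 10 UMIs, so it also fell from stage to stage. Only the far end went the other way, with maxima of 34, 44 and 59 UMIs. The top 10% of cells held 32.0%, 47.8% and 51.1% of the family's UMIs at the 3 stages, so the signal was spread over most cells of the mandible and concentrated in fewer cells of the incisor buds.

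Histone levels were then compared between cells with and without a UMI of *Pcna* or *Mki67*. After thinning, 33.9%, 19.6% and 17.7% of cells were *Pcna*+ at the 3 stages, and 41.2%, 24.3% and 20.7% were *Mki67*+. Without thinning the shares were 63.8%, 32.5% and 44.0%, and 65.4%, 34.3% and 36.9%. Free RNA can give a UMI to a cell that does not express the gene, and thinning removes UMIs from cells that do, so both classes are mixtures. At E16.5 the *Mki67*+ share was 16.4% in mesenchyme (median depth 5918 UMIs) and 15.9% in the 44 erythroid cells (11234 UMIs), so these shares are not read as shares of cycling cells.

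*Pcna*+ cells had higher levels of the family at every stage. They had 3116 CPM at E11.5 against 2581 CPM in *Pcna*- cells, a ratio of 1.21 (1.18 to 1.24). At E14.5 the levels were 2674 and 1665 CPM, a ratio of 1.61 (1.56 to 1.66). At E16.5 they were 2866 and 1546 CPM, a ratio of 1.85 (1.79 to 1.92). Without thinning the ratios were 1.32, 1.60 and 2.03. The classes also differed in deposited depth, with median UMIs of positive and negative cells of 6191 and 6216, 4482 and 3724, and 7986 and 6222 at the 3 stages. The part of depth in these ratios beyond the thinning was not tested.

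*Mki67* separated the cells more widely. *Mki67*+ cells had 3302 CPM against 2385 CPM at E11.5, a ratio of 1.38 (1.35 to 1.42). At E14.5 the levels were 3862 and 1223 CPM, a ratio of 3.16 (3.07 to 3.25), and at E16.5 they were 4055 and 1186 CPM, a ratio of 3.42 (3.31 to 3.53). The level in *Mki67*- cells was thus about the same at E14.5 and E16.5 and higher at E11.5. Median deposited depths of *Mki67*+ and *Mki67*- cells were 7153 and 5641 UMIs, 5031 and 3550 UMIs, and 9301 and 5973 UMIs in the order of the stages.

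The level also followed the number of *Mki67* UMIs. At E16.5, cells with 0, 1, 2 and 3 or more *Mki67* UMIs had 1186, 3323, 4546 and 5598 CPM of the family. At E14.5 the same steps gave 1223, 3455, 4442 and 4807 CPM, and at E11.5 they gave 2385, 3094, 3577 and 3756 CPM. The steps for *Pcna* gave 1546, 2686, 3474 and 4786 CPM at E16.5, again higher at each step. They gave 1665, 2530, 3335 and 2913 CPM at E14.5 and 2581, 3039, 3434 and 3231 CPM at E11.5, where the intervals of the last 2 values of a stage overlap (3141 to 3539 and 2551 to 3311, and 3298 to 3574 and 2959 to 3522).

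**Figure D2:**
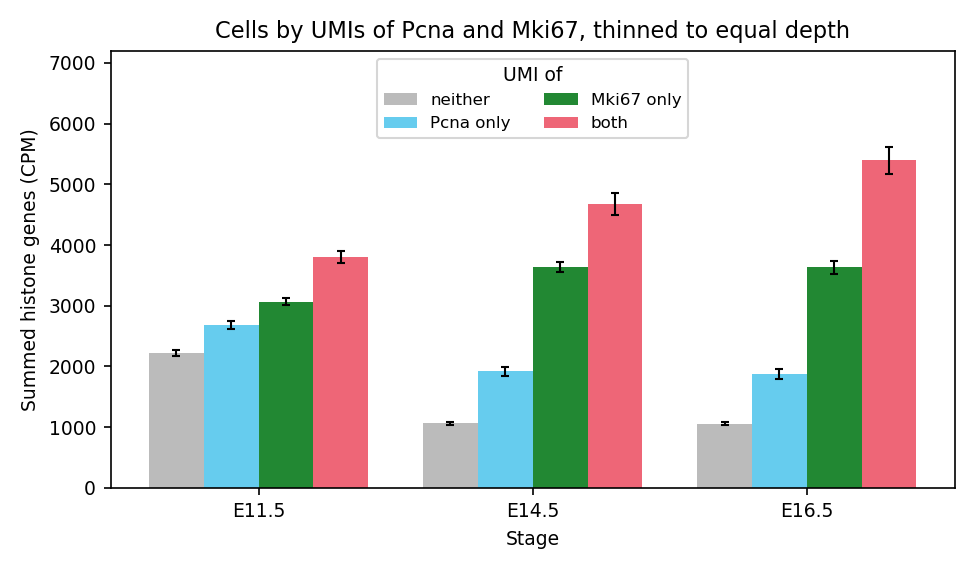
Summed level of the 67 histone genes in CPM (bars from 0, with 95% counting intervals) in cells with a UMI of neither gene, of *Pcna* only, of *Mki67* only and of both, at each stage, after thinning to 2000 UMIs. The order of the 4 classes is the same at each stage, and the span runs from 2220 to 3809 CPM at E11.5 and from 1055 to 5395 CPM at E16.5.

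Splitting cells by both genes gave the same order of classes at each stage. Cells with neither had 2220 CPM at E11.5, 1061 CPM at E14.5 and 1055 CPM at E16.5. Cells with only *Pcna* had 2685, 1918 and 1872 CPM. Cells with only *Mki67* had 3067, 3632 and 3630 CPM. Cells with both had 3809, 4669 and 5395 CPM. *Mki67*-only over *Pcna*-only cells gave ratios of 1.14 (1.11 to 1.18), 1.89 (1.81 to 1.98) and 1.94 (1.84 to 2.04). The intervals of neighbouring classes did not overlap at any stage. Called higher in *Mki67*-only than in *Pcna*-only cells were 0 of 37 genes of the family at E11.5 (0.446% of all genes), 6 of 32 at E14.5 (1.39%) and 6 of 31 genes at E16.5 (1.83%). *Hist1h1e*, *Hist1h3c*, *Hist1h4d* and *Hist2h2bb* were called at both later stages, and none was called lower (0.0495%, 0.092% and 0.206%).

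The types took part to different degrees. At E16.5, from cells with neither gene to cells with both, summed H3 genes went from 99.9 to 643 CPM, H1 genes from 213 to 1304 CPM and H2A genes from 357 to 2231 CPM. H4 genes went from 142 to 589 CPM. H2B genes went from 242 to 629 CPM, the smallest step of the 5 types. In cells with neither gene, H2B was the only type with about the same level at E16.5 and E11.5 (242 and 243 CPM), whereas H1 had 213 against 661 CPM. Without *Hist1h2bc* and *Hist3h2ba* these H2B levels were 93.6 and 193 CPM.

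Single genes mostly followed the sum. *Hist1h1b* had 90.5 CPM in *Mki67*- and 437 CPM in *Mki67*+ cells at E16.5, a ratio of 4.83 (4.34 to 5.38), after 4.19 at E14.5 and 1.37 at E11.5. *Hist1h2ae* had 169 and 664 CPM at E16.5, a ratio of 3.92 (3.61 to 4.26), after 3.44 and 1.32. The H3 gene *Hist1h3c* had 41.5 and 212 CPM, a ratio of 5.11 (4.37 to 5.98), after 4.23 and 1.40. The H4 gene *Hist1h4d* had 41.9 and 182 CPM, a ratio of 4.34 (3.69 to 5.11), after 3.41 and 1.27. *Hist1h4i*, also of H4, had a lower ratio at each stage, with 1.11, 1.72 and 2.45.

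Counted over the family, the *Mki67* split gave no call among 47 genes at E11.5 (0.123% of all genes called higher), 24 of 41 at E14.5 (1.45%) and 28 of 40 genes at E16.5 (2.03%), all of them higher in *Mki67*+ cells. None was called lower, against 0.0103%, 0.0205% and 0.326% of all genes. The *Pcna* split gave none of 47 at E11.5 (0.0103%), none of 41 at E14.5 (0.0411%) and 7 of 40 genes at E16.5 (0.295%), and none was called lower (0.0103%, 0.0925% and 0.0204% of all genes). Those 7 were *Hist1h1b*, *Hist1h2ae*, *Hist1h2an*, *Hist1h2ap*, *Hist1h2bm*, *Hist1h3c* and *Hist2h2ac*, and the count at E16.5 ran from 4 to 16 over the other settings tried. The share over all genes was not recomputed for those settings. The median ratio of the genes tested was 1.43, 3.33 and 3.56 for *Mki67*, and 1.20, 1.64 and 1.70 for *Pcna*. Counting intervals lay wholly above 1 for 31 of 47, 37 of 41 and 38 of 40 genes in the *Mki67* split. The share of all genes with such intervals was not computed, so these counts have no background beside them.

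The *Mki67* ratios were also set beside the annotated 3′ ends, as a description. At E16.5 the median ratio was 3.21 for the 15 tested genes with more than 100 annotated bases after the stem-loop, 3.71 for the 13 with at most 100 and 3.75 for the 12 without a stem-loop in the annotation. It was 2.76 for the 10 with a polyadenylation signal and 3.77 for the 30 without. The gap was smaller before, with 1.35 against 1.44 at E11.5 and 3.02 against 3.41 at E14.5. The median *Pcna* ratio at E11.5 had the other order, with 1.23 with a signal and 1.19 without. The *Mki67* ratios below 1 at E16.5, of *Hist3h2ba* and *Hist3h2a*, were both in the group with a signal and with a long 3′ end.

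The highest and lowest *Pcna* ratios, by geometric mean over the stages, included genes with few UMIs, such as *Hist1h2ai* with 249 in all, and well counted ones, such as *Hist1h2bc* with 5695. The highest were 2.43 for *Hist1h2bl*, 2.30 for *Hist1h2ai*, 2.08 for *Hist1h4a*, 1.96 for *Hist1h2an* and 1.86 for *Hist1h3b*. At E16.5 the ratio was 4.66 for *Hist1h2bl* with an interval of 1.64 to 13.3, and 2.57 for *Hist1h3b* with an interval of 1.73 to 3.78. The lowest were 0.715 for *Hist1h4j*, 0.809 for *Hist3h2a*, 0.838 for *Hist1h2bc*, 0.857 for *Hist3h2ba* and 0.868 for *Hist1h4k*. The intervals of *Hist1h4j* and *Hist1h4k* included 1 at every stage, so their place in this order is within counting error.

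**Figure D3:**
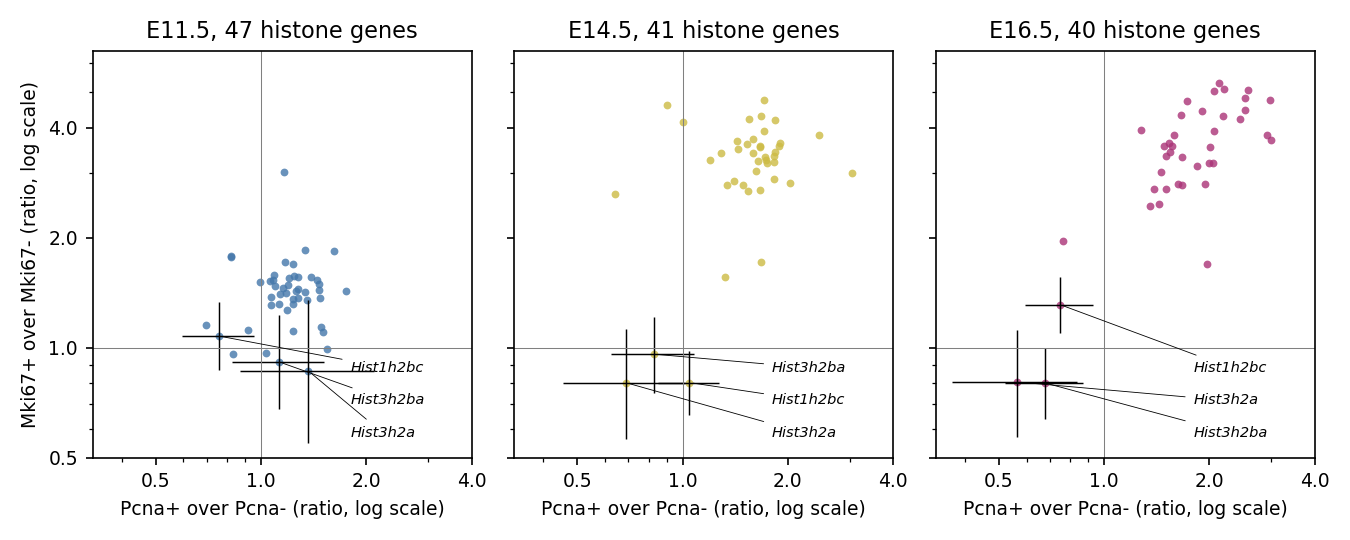
Ratio of each histone gene with at least 50 UMIs in *Mki67*+ over *Mki67*- cells (vertical, log axis) against *Pcna*+ over *Pcna*- cells (horizontal, log axis), 1 panel a stage, with gray lines at 1 and 95% counting intervals for the 3 labelled genes. At E14.5 and E16.5 the median *Mki67* ratio is 3.33 and 3.56, and the highest is 4.76 and 5.31. *Hist1h2bc*, *Hist3h2ba* and *Hist3h2a* lie between 0.801 and 1.31 at these stages. Other genes are also low, such as *Hist1h4i* (1.72 and 2.45) and, at E16.5, *Hist1h3a* (1.69).

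*Hist1h2bc*, *Hist3h2ba* and *Hist3h2a* stood apart by their low *Mki67* ratios at the later stages. They were also the 3 of 59 tested members called higher at E16.5 than at E11.5, with ratios of 2.35, 4.41 and 3.98. Of all genes 4.37% were called higher in that comparison, so the number of such calls is not read as a trait of the family. *Hist3h2ba* and *Hist3h2a* are the only members on chromosome 11, an H2B gene at chr11:58948920-58949533 and an H2A gene at chr11:58954685-58956830, and *Hist1h2bc* is an H2B gene of the chromosome 13 cluster with 2 annotated exons and no stem-loop in its annotated transcript. The genes were singled out here after their values were seen, except that the rule on *Pcna* ratios names them too.

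*Hist3h2ba* had 15.0 CPM at E11.5, 36.2 CPM at E14.5 and 66.4 CPM at E16.5. Its *Mki67* ratio was 0.916 (0.679 to 1.23), 0.961 (0.754 to 1.21) and 0.801 (0.638 to 0.998) at these stages, and its *Pcna* ratio at E16.5 was 0.678 (0.522 to 0.870). *Hist3h2a* had 7.30, 19.6 and 29.1 CPM, with *Mki67* ratios of 0.867 (0.549 to 1.35), 0.802 (0.563 to 1.12) and 0.806 (0.571 to 1.12). Neither gene was higher in *Mki67*+ cells beyond its counting interval at any stage. *Hist1h2bc* had 29.4, 55.1 and 69.2 CPM, and its *Mki67* ratio was 1.08 (0.870 to 1.33), 0.804 (0.655 to 0.979) and 1.31 (1.10 to 1.57). Within mesenchyme alone the *Mki67* ratios at E16.5 were 1.61 for *Hist1h2bc*, 0.864 for *Hist3h2ba* and 0.818 for *Hist3h2a*, beside 5.61 for *Hist1h2ae* and 7.45 for *Hist1h1b*.

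Lineages were named from marker genes after clustering without the histone and cell cycle genes. No cluster of E11.5 was named epithelium, and 2 clusters of that stage stayed unnamed, of 1065 and 299 cells. The order of the summed level at E11.5 was mesenchyme with 3043 CPM, erythroid cells with 2841 CPM, muscle with 2556 CPM and the unnamed clusters with 2466 and 2253 CPM. The intervals of muscle (2460 to 2654) and of the larger unnamed cluster (2432 to 2501) overlapped.

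At E14.5 mesenchyme had 2104 CPM and epithelium 2022 CPM, a ratio of epithelium over mesenchyme of 0.961 (0.943 to 0.980). As the mean share per cell in place of pooled counts, this ratio was 1.02, so its direction is not settled. Endothelium followed with 1549 CPM, immune cells with 1460 CPM, erythroid cells with 1253 CPM and glia with 1183 CPM. The intervals of endothelium and immune cells overlapped, as did those of erythroid cells and glia. At E16.5 the order was mural cells with 2643 CPM, immune cells with 2506 CPM, mesenchyme with 2327 CPM, epithelium with 1965 CPM, erythroid cells with 1843 CPM and endothelium with 1319 CPM. The mural and immune classes hold 26 and 27 cells and their intervals overlap. The intervals of immune cells (2332 to 2689) and mesenchyme (2305 to 2349) overlap too, as do those of epithelium (1945 to 1985) and erythroid cells (1728 to 1963). Epithelium over mesenchyme was 0.844 (0.833 to 0.856) at E16.5.

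**Figure D4:**
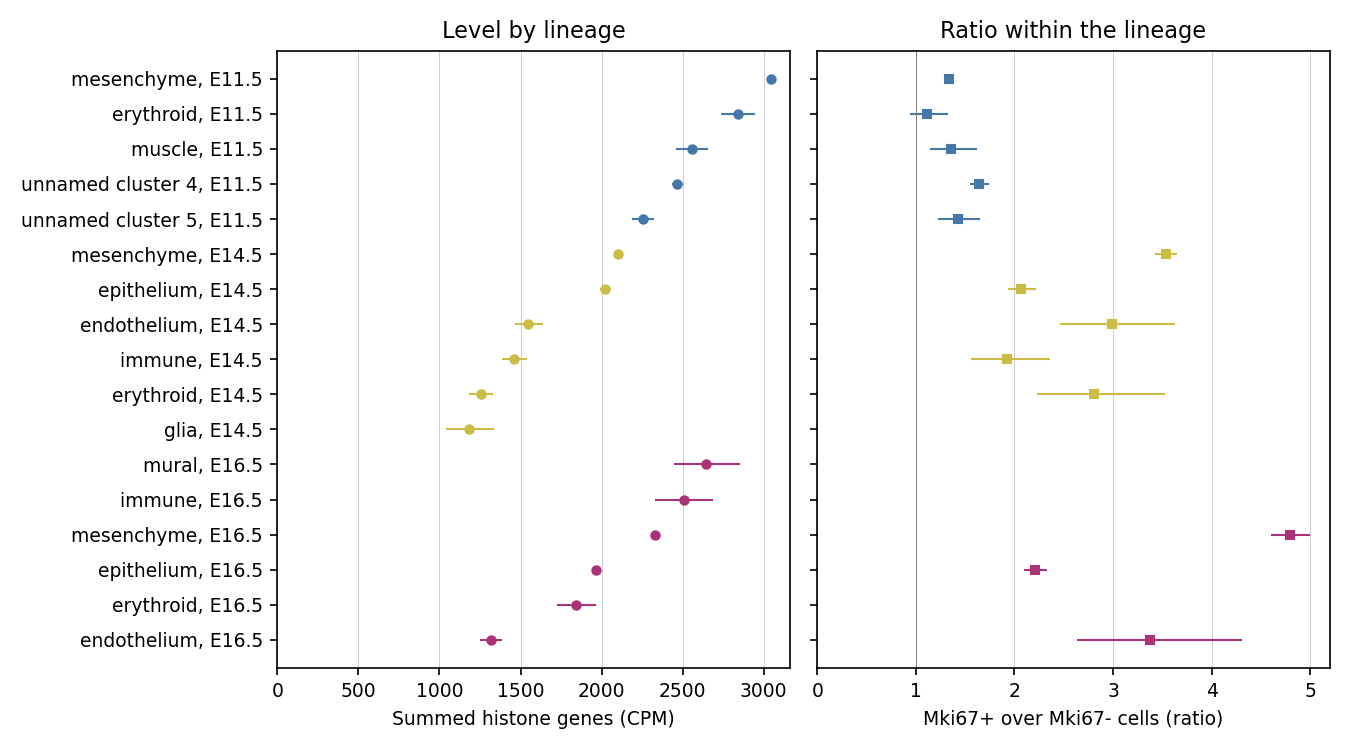
Left, summed level of the 67 histone genes in CPM by lineage and stage (all cells, points with 95% counting intervals). Right, the ratio of *Mki67*+ over *Mki67*- cells within the lineage after thinning, where both classes had at least 20 cells, with a gray line at 1. The E16.5 mesenchyme has the highest ratio (4.80) and E16.5 epithelium a lower one (2.21), although their levels are 2327 and 1965 CPM.

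No gene of the family was called in epithelium against mesenchyme in either direction, of 54 tested at E14.5 (3.52% of all genes higher and 4.05% lower) and of 57 at E16.5 (3.33% and 4.12%). The median ratio of epithelium over mesenchyme was 1.06 for the 54 genes and 0.820 for the 57. The intervals of 15 genes lay above 1 and those of 9 below at E14.5, whereas 5 lay above and 34 below at E16.5. Such intervals were not counted over all genes, so these numbers are not read as a trait of the family. *Hist3h2ba* was higher in epithelium at both stages, with 59.6 against 30.1 CPM at E14.5 and 86.9 against 50.7 CPM at E16.5, a ratio of 1.98 (1.74 to 2.25) at the first of these stages. So was *Hist2h2be*, at lower levels, with 7.16 against 2.18 CPM at E14.5 and 4.64 against 2.84 CPM at E16.5. Its E14.5 ratio of 3.28 (2.11 to 5.12) was the highest of the family. The 10 CPM added for a call holds back genes at such low levels. *Hist3h2ba* was low in immune cells, with 6.19 CPM at E14.5 and 3.25 CPM at E16.5, and reached 73.4 CPM (41.9 to 119) in the 44 glial cells. The immune cells held 969164 and 307666 UMIs of all genes at these stages, so their values rest on very few UMIs of *Hist3h2ba*. *Hist1h2bc* kept no such order, with 62.0 CPM in epithelium against 51.6 CPM in mesenchyme at E14.5 and 57.4 against 78.0 CPM at E16.5. It had 228 CPM (177 to 287) in the 27 immune cells of E16.5. *Hist3h2a* was between 18.6 and 32.8 CPM in epithelium and mesenchyme of both later stages.

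**Figure D5:**
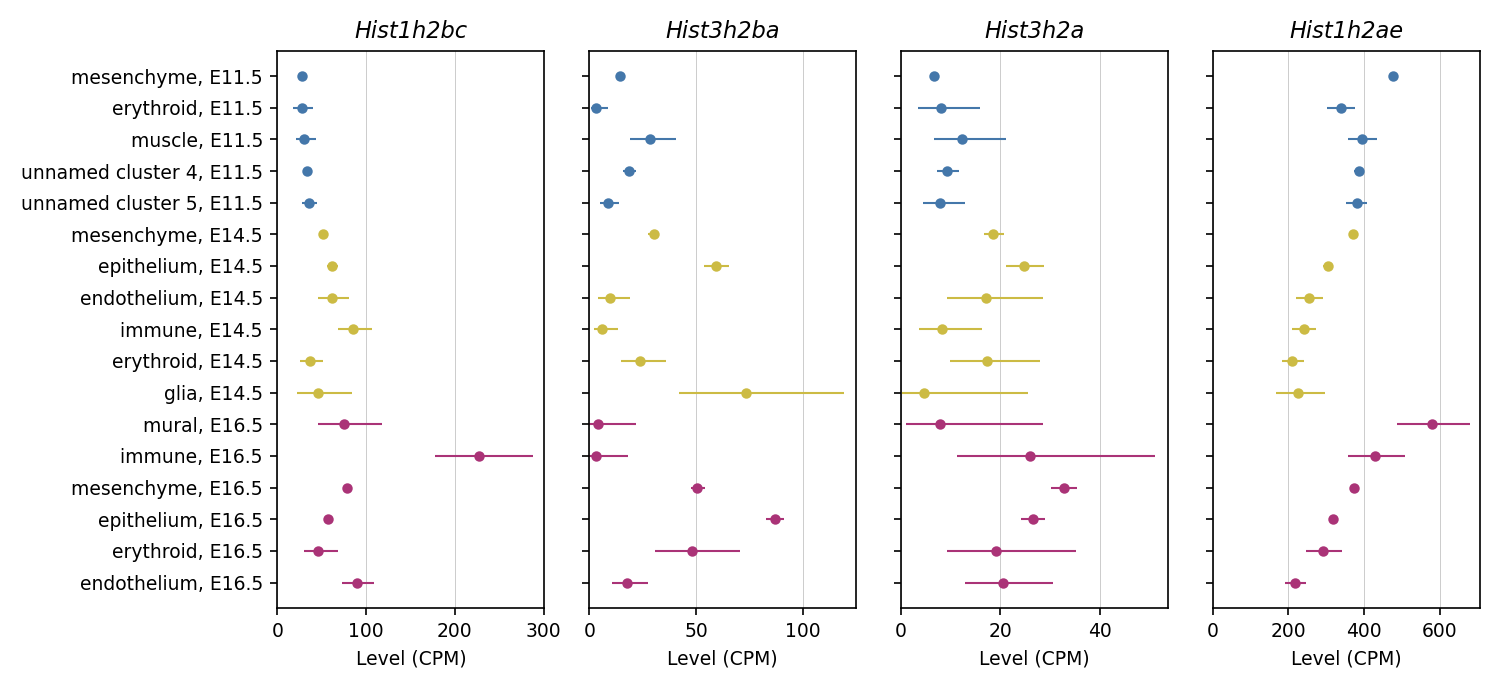
Levels in CPM of *Hist1h2bc*, *Hist3h2ba*, *Hist3h2a* and, for comparison, *Hist1h2ae* by lineage and stage, with 95% counting intervals. *Hist3h2ba* is higher in epithelium than in mesenchyme at both later stages (86.9 and 50.7 CPM at E16.5), and *Hist1h2bc* is highest in the E16.5 immune cells (228 CPM).

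The step from *Mki67*- to *Mki67*+ cells was smaller in epithelium than in mesenchyme at both later stages. In E14.5 epithelium the levels were 1460 and 3021 CPM, a ratio of 2.07 (1.93 to 2.22), and in E14.5 mesenchyme they were 1202 and 4247 CPM, a ratio of 3.53 (3.42 to 3.65). In E16.5 epithelium the levels were 1291 and 2854 CPM, a ratio of 2.21 (2.10 to 2.33), and in E16.5 mesenchyme they were 1134 and 5436 CPM, a ratio of 4.80 (4.601 to 4.997). The difference lay mainly in the *Mki67*+ cells. The *Mki67*+ share was higher in epithelium, with 30.6% against 23.0% at E14.5 and 27.4% against 16.4% at E16.5 after thinning. The difference of these ratios was not tested, as there is 1 sample a stage.

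The *Pcna* ratios showed the same order. They were 1.45 (1.34 to 1.57) in epithelium and 1.64 (1.58 to 1.70) in mesenchyme at E14.5, and 1.55 (1.46 to 1.64) and 2.12 (2.02 to 2.22) at E16.5. Mesenchyme had 220, 130 and 121 CPM of *Pcna* and 376, 221 and 224 CPM of *Mki67* at the 3 stages. Epithelium had 131 and 138 CPM of *Pcna* and 237 and 277 CPM of *Mki67* at E14.5 and E16.5. In pooled counts of E16.5, epithelium thus had more of both transcripts and less of the histone transcripts than mesenchyme. This does not hold for the typical cell. After thinning, 22.5% of E16.5 epithelial cells and 31.9% of mesenchymal cells had no histone UMI, with medians of 2 and 1. As the mean share per cell, epithelium over mesenchyme was 0.928 at E16.5.

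The 15 groups of stage and lineage with a name and at least 20 cells entered a comparison of patterns, in which each of 10045 other genes was set beside the summed family by Pearson's r of log2 levels after adding 10 CPM. *Slbp*, the stem-loop binding protein, ranked first with r = 0.880. It was followed by *Nelfe*, a subunit of the negative elongation factor, with 0.871, then *Fsd1* with 0.867, *Ftx* with 0.858 and *Selenoi* with 0.838. *Pcna* ranked 85 with 0.695 and *Mki67* ranked 231 with 0.615. The groups come from 3 pooled matrices and differ in depth, so the values are descriptions only. Among the histone genes, r with the sum of the other members was 0.930 for *Hist1h2ap*, 0.876 for *Hist1h2ae* and 0.845 for *Hist1h1b*, but -0.15 for *Hist1h2bc*, -0.34 for *Hist3h2ba* and -0.02 for *Hist3h2a*.

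The factors that process histone mRNA had lower median ratios than the family in both splits. None of 12 tested genes of this list was called in either split at any stage. Of all genes, 0.0103%, 0.0411% and 0.295% were called higher in *Pcna*+ cells at the 3 stages. In *Mki67*+ cells the shares were 0.123%, 1.45% and 2.03%, so no call in a list of this size does not set it apart from other genes. In the *Pcna* split at E11.5 and E14.5 no gene of the family was called either. *Slbp* had 207, 122 and 122 CPM at the 3 stages, and its *Pcna* ratios were 1.17, 1.75 and 1.71, above its *Mki67* ratios of 0.903, 1.27 and 1.41. These *Pcna* ratios were close to the family's medians of 1.20, 1.64 and 1.70. The median *Mki67* ratio of the list was 1.03, 1.18 and 1.35, and its median *Pcna* ratio was 1.07, 1.14 and 1.12. Of 10 histone chaperones, which hand new histones to DNA, none was called either, beside the same shares of all genes. Their median *Pcna* ratio was 1.09, 1.38 and 1.52, and their median *Mki67* ratio was 0.984, 1.20 and 1.26. *Nasp*, a carrier of H1 and of H3 with H4, had 1144, 577 and 427 CPM with *Pcna* ratios of 1.10, 1.47 and 1.74.

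Genes of DNA replication and of mitosis were set beside the family in the same splits. The median *Pcna* ratio of 18 replication genes was 1.25, 1.74 and 2.09 at the 3 stages, and their median *Mki67* ratio was 0.835, 1.08 and 1.42. Of the 18 genes, 0, 3 and 5 were called higher in *Pcna*+ cells at the 3 stages (0.0103%, 0.0411% and 0.295% of all genes). Among them was *Cdc6*, a loader of the replicative helicase, with ratios of 1.65, 3.61 and 2.89. In *Mki67*+ cells the counts were 0, 0 and 2 (0.123%, 1.45% and 2.03% of all genes). *Rrm1* and *Rrm2*, subunits of ribonucleotide reductase, were called at E16.5. All 10 genes of G2 and mitosis were called higher in *Mki67*+ cells at E14.5 and E16.5 and none at E11.5, beside the same shares of all genes. *Top2a*, a topoisomerase, had ratios of 1.67, 3.996 and 6.17. In thinned cells, the summed UMIs of the histone genes correlated with those of the mitotic list with Pearson's r of 0.278, 0.504 and 0.513, over 5824, 5210 and 4298 cells, and with those of the replication list with 0.0893, 0.293 and 0.286. With the histone genes of the next paragraph, among them *H2afx* and *Cenpa*, they gave 0.125, 0.362 and 0.361, above the replication list at each stage. These correlations share the cells' depth limits and are descriptions.

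Histone genes listed as not tied to S phase in the same way served as a contrast. Of 10 such genes, *H2afx* and *Cenpa* were called higher in *Mki67*+ cells at E14.5 (1.45% of all genes), and *H2afz*, *H2afx* and *Cenpa* at E16.5 (2.03%). None was called in the *Pcna* split, where at most 0.295% of all genes were called higher. The median *Mki67* ratio of this list was 1.03, 1.46 and 1.47, below that of the replication-dependent genes at each stage. Its summed level was 8465 CPM at E11.5, 5951 CPM at E14.5 and 7054 CPM at E16.5.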

How the data were processed

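Single-cell libraries were made with the 10x Genomics 3′ v3 kit. Per the labels, the authors used Cell Ranger 4.0.0 and the mm10 genome, and deposited raw UMI counts as 1 matrix for each stage. Every deposited sample column was used (0 unused). The study's filter on cells was applied, a minimum of 700 genes and a maximum of 20% mitochondrial UMIs. Members were matched on the start of their symbol, in the deposited gene names. The members, gene lists and tests were chosen with earlier results of these data known.

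Clustering used SCTransform (sctransform 0.4.2, Seurat 5.3.0, R 4.3.3) on 2000 variable genes without the histone and cell cycle lists, 20 principal components and Leiden at 0.4 (leidenbase 0.1.32). Clusters were named from marker lists by a rule set after the data were seen. It required a score of at least 0.5 and at least 3 detected markers. Among the 10 leading genes, no other class could have 2 or more markers, or more than the named class. A very shallow cluster also needed a marker of its class there. Scrublet (scanpy 1.11.5) called no more than 2 cells a stage, so it had not worked, and the 5% highest scores were left out as an alternative.

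Levels are summed UMIs scaled to CPM. Cells were thinned to 2000 UMIs for class comparisons. Intervals at the 95% level are exact Poisson for levels and exact conditional binomial for ratios (python 3.11.15, numpy 2.4.6, scipy 1.17.1, pandas 2.3.3), and the code was tested on simulated data. Named are genes with at least 1% of the family's UMIs, the 5 highest and 5 lowest *Pcna* ratios, the largest and smallest stage ratio of each type, genes at 0, the 5 genes most alike in pattern and the fixed pathway lists. Genes ranked for likeness had a standard deviation of log2 levels over 0.3. Sequences were read from GENCODE vM21 transcripts on GRCm38, another annotation release than that of the counts.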

Additional observations from a re-analysis of the deposited data

Results flagged for a closer look

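The *Mki67* ratio of *Hist1h2bc* lay on opposite sides of 1 at the later stages. It was 0.804 (interval 0.655 to 0.979) in *Mki67*+ over *Mki67*- cells of E14.5, whereas those of E16.5 gave 1.31 (1.10 to 1.57), and the difference was not tested, as each stage is 1 sample.

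Barcodes left out by the filter on cells also held histone UMIs. The summed family had 1919 CPM in the 2135 barcodes left out at E11.5, 455 CPM in 2101 at E14.5 and 481 CPM in 1208 at E16.5, each below the level in the cells kept at that stage.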

How the results depend on the processing

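Over 13 other settings and 14 results, 97 values were recomputed. Of these, 50 stayed within the counting interval or within 1.5 times the count of the main value, 45 moved and 2 changed direction. The 50 include the *Pcna* and *Mki67* ratios as the mean share per cell, which could not change. All thinned cells have the same depth, so their mean share equals the pooled share. Epithelium over mesenchyme at E14.5 with Leiden at 0.2, also among the 50, returned exactly the main value of 0.961. These values are therefore not read as signs of stability. Summed H2B genes at E16.5 over E11.5 were 0.759 in place of 1.10 without *Hist1h2bc* and *Hist3h2ba*, a setting chosen after seeing the data. As the mean share per cell, epithelium over mesenchyme at E14.5 was 1.02 in place of 0.961, and 0.928 at E16.5, while E14.5 over E11.5 was 0.640 and E16.5 over E14.5 was 1.02. With at least 200 genes and no mitochondrial limit, the stage ratios were 0.663 and 1.07, epithelium over mesenchyme at E16.5 was 0.832, *Pcna*+ over *Pcna*- cells gave 1.18 at E11.5 and 1.70 at E14.5, and *Mki67*+ over *Mki67*- cells gave 3.05 at E14.5. Under a minimum of 1000 genes and a maximum of 10% mitochondrial UMIs, the stage ratios were 0.725 and 1.01, epithelium over mesenchyme at E14.5 was 0.920, the *Pcna* ratios were 1.18 at E11.5 and 1.52 at E14.5, and the *Mki67* ratios were 1.44 at E11.5 and 2.90 at E14.5. Without the 5% highest doublet scores, E16.5 over E14.5 was 1.04, epithelium over mesenchyme at E16.5 was 0.832, the *Pcna* ratio at E11.5 was 1.17 and 4 genes were called in *Pcna*+ cells at E16.5. Without thinning, the *Pcna* ratios were 1.32 at E11.5 and 2.03 at E16.5, and the *Mki67* ratios 1.65 and 4.04. Thinned to 1000 UMIs, the *Pcna* ratios were 1.10 at E11.5 and 1.76 at E16.5, the *Mki67* ratios 1.32, 2.71 and 3.16, and 2 and 4 genes were called at E14.5 and E16.5. With at least 2 UMIs for positive cells, the *Pcna* ratios were 1.32, 1.95 and 2.38, the *Mki67* ratios 1.53, 3.74 and 4.24, and 3 and 16 genes were called at E14.5 and E16.5. Without *Hist1h2ae*, E14.5 over E11.5 was 0.683 and epithelium over mesenchyme at E14.5 was 0.991. Leiden resolutions of 0.2 and 0.8 gave 0.735 and 0.826 for epithelium over mesenchyme at E16.5. At 0.2 a cluster of 1011 cells, led by *Sfrp4* and globin genes, was named erythroid. At 0.4 the cluster led by *Sfrp4*, of 943 cells, counted as mesenchyme, and 44 cells were erythroid. The value of 0.735 therefore does not compare the same classes. At 0.8 a cluster of 201 cells stayed unnamed. Adding 1 CPM gave 2 and 12 called genes at E14.5 and E16.5. The cause of these shifts was not tested. For counts of called genes, the share over all genes was not recomputed under the other settings, so they are not set beside the main shares. No paired analysis was possible because the barcodes of a stage could not be assigned to samples, and leaving out each sample in turn was not run for the same reason. Genes with few UMIs, such as *Hist1h4j* and *Hist1h2bl*, are limited by counting error.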
